A study of Mus musculus with 4 samples.

Results

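The Notch receptor genes Notch1, Notch2 and Notch3, the ligand genes Dll1, Dll3, Dll4, Jag1 and Jag2 and the Fringe genes Lfng and Mfng were followed in mouse motor neuron cultures. They were taken by name from the deposited expression table, and all 10 were found among its 11747 rows. The cultures were grown from embryonic stem cells of the A172LoxP line, engineered so that doxycycline switches on a transgene for a transcription factor. Floating aggregates, called embryoid bodies, received 0.5 µM retinoic acid and 1 µM of the Sonic hedgehog pathway agonist purmorphamine for 2 days. They were then kept for 2 to 3 more days with 2 µg/mL doxycycline (libraries 2 and 8) or with vehicle (libraries 1 and 7). All 4 libraries thus carry the transgene and the same patterning, and the libraries differ in doxycycline itself as well as in the induced factor. The labels name 1 engineered line and do not say whether the 2 libraries within a group had separate cultures, so p-values measure the spread between libraries, which may be technical.

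Notch receptors are single-pass membrane proteins that are cut when a Delta-like or Jagged ligand on a neighbouring cell binds them. The freed intracellular domain enters the nucleus, joins the DNA-binding protein RBPJ and switches on repressor genes of the Hes and Hey families. In the spinal cord, newborn neurons carry the ligands and hold their neighbours in the progenitor state by this route, and the same signal separates V2a from V2b interneurons. Fringe enzymes add a sugar to the receptors in the Golgi and thereby change how they respond to Delta-like and Jagged ligands.

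Promoter sequences are shown for 3 genes: Notch3, which alone passed the test of group differences, Lfng, which holds matches to the RBPJ core, and Dll1, which holds the most E boxes, the sites of proneural bHLH factors. They come from RefSeq on build GRCm38.p6, which is not the build mm9 named in the submitters' processing notes, and cover the 250 bases before an annotated transcript start, 5′ to 3′ along the gene. Capitals mark matches on either strand to TGGGAA, the core of the RBPJ site, and to CANNTG, the E box.
Notch3 (chr17:32166891-32167140, minus strand): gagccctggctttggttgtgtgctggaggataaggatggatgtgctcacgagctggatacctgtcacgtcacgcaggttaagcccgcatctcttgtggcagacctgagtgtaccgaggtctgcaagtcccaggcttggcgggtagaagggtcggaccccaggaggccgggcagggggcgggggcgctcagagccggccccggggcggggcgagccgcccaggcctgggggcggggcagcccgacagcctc
Lfng (chr5:140607091-140607340, plus strand): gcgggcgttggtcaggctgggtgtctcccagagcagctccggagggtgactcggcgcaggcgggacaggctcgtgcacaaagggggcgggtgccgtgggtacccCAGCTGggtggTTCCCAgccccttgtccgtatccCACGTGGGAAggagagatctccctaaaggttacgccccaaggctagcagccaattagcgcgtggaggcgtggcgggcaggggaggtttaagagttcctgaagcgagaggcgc
Dll1 (chr17:15376933-15377182, minus strand): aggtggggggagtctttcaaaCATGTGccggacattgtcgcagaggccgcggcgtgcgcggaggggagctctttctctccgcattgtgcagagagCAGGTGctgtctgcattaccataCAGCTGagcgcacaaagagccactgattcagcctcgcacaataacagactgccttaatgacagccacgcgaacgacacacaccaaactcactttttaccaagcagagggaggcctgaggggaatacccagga
The Lfng window holds 2 TGGGAA matches, which begin 135 and 108 bases before the start. The second overlaps an E box of the letters CACGTG. The RBPJ core is present in 21.6% of all 32851 promoter windows of this length, and 2 or more copies in 2.77%. The Dll1 window, the more distant of 2 annotated starts of that gene, holds 3 E boxes, and the window of the other start holds 1. The Notch3 window holds neither motif. At least 1 E box occurs in 66.2% of all windows, and the share with 3 or more was not computed. Of the 9 members with a promoter entry, Lfng alone held TGGGAA, and Dll1, Dll3, Jag1 and Lfng held an E box. The homeodomain word TAATTA, searched on both strands, was in none of the members' windows and in 4.84% of all windows. These matches describe letters in a window and do not show that a protein binds there.

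The table holds normalized read counts, gene counts that were divided by a size factor per library, with library totals of 26449555 to 27047458. Depth was estimated at 22434755 to 30235763 reads. Defining genes of the labelled cell type were present in every library but lower in both libraries with doxycycline. The motor neuron factor gene Mnx1 had 397 and 292 normalized counts in libraries 2 and 8 with doxycycline, against 1658 and 1500.0 in libraries 1 and 7 without. Chat, which makes acetylcholine, had 365 and 288, against 765 and 786. The study sets cultures given doxycycline against cultures given vehicle to find genes regulated by the induced factor. Over all rows, 278 genes (2.37%) passed limma's moderated test with Benjamini-Hochberg adjustment at 0.05, 68 higher (0.579%) and 210 lower (1.79%) with doxycycline. Means below are given ± SD of normalized counts over n = 2 libraries per group. Changes are log2 differences of normalized count + 1 ± SE, with doxycycline minus without. With 2 libraries a side, the smallest p that an exact two-sided permutation test of a single value allows is 0.333.

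Of the 10 genes, Notch3 alone passed the test, with a rise, which is 1 of 10 against 0.579% of all rows. In 7 of the 10 genes, both libraries with doxycycline lay above both without, which held for 26.7% of all rows, and groups free of overlap in either direction made up 53.2% of all rows. These were the 3 receptors, the 3 Delta-like ligands and Lfng. In Jag1, Jag2 and Mfng the groups overlapped, and in none did both libraries with doxycycline lie below both without, which held for 26.5% of all rows. The median change of the 10 was 0.20, against 0.0024 for all rows.

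**Figure D1:**
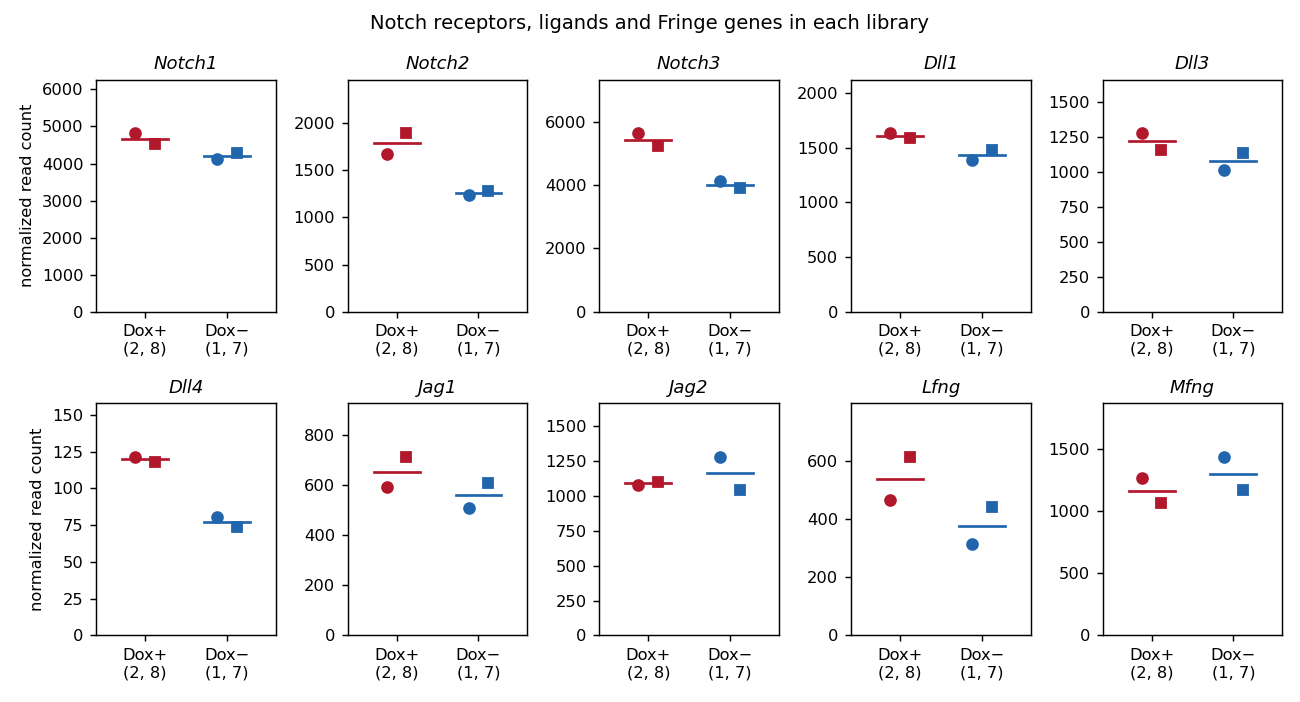
Normalized read count of each gene in every library, with doxycycline (Dox+, red, libraries 2 and 8) left of vehicle (Dox−, blue, libraries 1 and 7); bars are group means over 2 libraries and each axis starts at 0. The groups are apart for the 3 receptors, the 3 Delta-like ligands and Lfng, and overlap for Jag1, Jag2 and Mfng.

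The 3 receptors followed here were all higher in both libraries with doxycycline, to different degrees. Notch3, a receptor known from vascular mural cells and also present in neural progenitors, had 5640 and 5233 normalized counts in libraries 2 and 8 with doxycycline, against 4138 and 3901 in libraries 1 and 7 without. The lowest library with doxycycline thus stood well above the highest without. Its mean was 5437 ± 288 with and 4019 ± 168 without doxycycline, a rise of 0.44 ± 0.07 or 1.35-fold (limma, adjusted p = 0.0458). It ranked 239th of 11747 rows by p. The call is at the edge of the threshold: without library 1, 7, 2 or 8 the change was 0.48, 0.39, 0.38 and 0.49 and the limma adjusted p was 0.0804, 0.0752, 0.139 and 0.134, and without the intensity trend it was 0.11.

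Notch2, a receptor with a broad distribution in progenitors and other tissues, had a slightly larger change with less even libraries. It was at 1675 and 1891 normalized counts in libraries 2 and 8 with doxycycline, against 1242 and 1277 in libraries 1 and 7 without. The libraries without doxycycline lay close together and those with it further apart. The change was 0.50 ± 0.09, or 1.41-fold, and just missed the threshold (limma, adjusted p = 0.0527). It passed with robust empirical Bayes estimates (limma, adjusted p = 0.0367) but not without the intensity trend (limma, adjusted p = 0.105). Without library 1, 7, 2 or 8 the change was 0.48, 0.52, 0.59 and 0.41.

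Notch1, the receptor best known for keeping neural progenitors from becoming neurons, had 4817 and 4527 normalized counts in libraries 2 and 8 with doxycycline, against 4122 and 4281 in libraries 1 and 7 without. The groups did not overlap, but the gap between library 8 and library 7 was small, 0.08 on the log2 scale, against 0.22 between 2 and 1. The change of 0.15 ± 0.07 did not pass (limma, adjusted p = 0.261). Of all rows, 43.3% had a larger change in either direction.

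The balance among the receptors can be read within each library, where scaling between libraries plays no part. Notch3 over Notch1, as a ratio of normalized counts, was 1.17 and 1.16 in libraries 2 and 8 with doxycycline, against 1.00 and 0.911 in libraries 1 and 7 without. Notch2 over Notch1 was 0.348 and 0.418 with doxycycline, against 0.301 and 0.298 without. Both ratios were higher in both libraries with doxycycline. Notch3 over Notch2 was 3.37 and 2.77 with doxycycline, against 3.33 and 3.06 without, and overlapped.

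**Figure D2:**
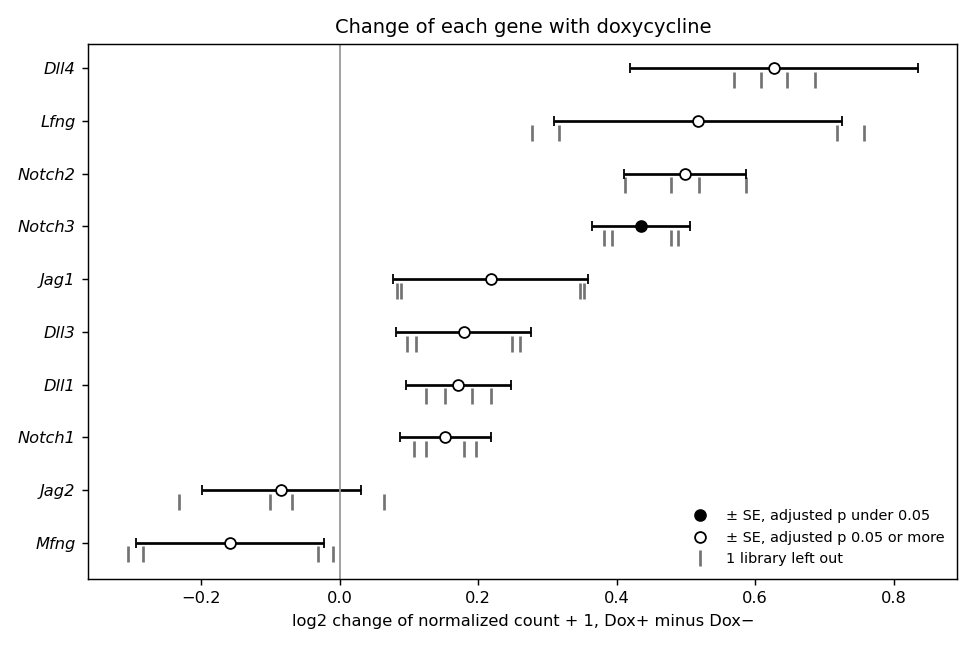
Change of each gene on the log2 scale, with doxycycline minus without; points are the fit over all 4 libraries with its SE as bars, filled where the adjusted p was under 0.05, and grey ticks are the change with 1 library left out. Dll4 is at the top with 0.63 and Mfng at the bottom with -0.16; Notch3 alone is filled, and the ticks of Jag2 lie on both sides of 0.

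Among the Delta-like ligands the rarest, Dll4, had the largest change. Dll4, a ligand of blood vessels and, in the spinal cord, of V2 progenitors, had 121 and 118 normalized counts in libraries 2 and 8 with doxycycline, against 80.4 and 74.1 in libraries 1 and 7 without. The libraries of each group nearly coincided. The change was 0.63 ± 0.21, or 1.54-fold, and did not pass (limma, adjusted p = 0.172). It rests on few reads, 237 with against 159 without doxycycline by estimate, a ratio of 1.54 with an exact Clopper-Pearson 95% interval of 1.26 to 1.90 that covers counting error only. It was the 195th largest rise of 11747 rows, and its change stayed between 0.57 and 0.69 whichever library was left out.

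Blood vessel endothelium, in which Dll4 is also known, was represented by few markers. Of 7 such markers 3 were listed, Cdh5, Kdr and Tek, and all 3 had values below 0 but none passed, while Pecam1, Tie1, Emcn and Eng were not among the listed rows. Their summed normalized counts were 490.4 and 640.4 with doxycycline, against 792 and 890.1 without. Cdh5, the cadherin of endothelial junctions, had a change of -0.72 ± 0.15 (limma, adjusted p = 0.0789), and Kdr, a receptor for vascular endothelial growth factor, one of -0.85 ± 0.21 (limma, adjusted p = 0.106). Tek, the angiopoietin receptor, had overlapping groups and a change of -0.23 ± 0.24 (limma, adjusted p = 0.637). The part of endothelial cells in the Dll4 values was not tested.

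Dll1, a ligand of newborn spinal neurons and of their committed precursors, had 1633 and 1590 normalized counts in libraries 2 and 8 with doxycycline, against 1385 and 1477 in libraries 1 and 7 without. On the log2 scale library 2 exceeded library 1 by 0.24 and library 8 exceeded library 7 by 0.11. Its change was 0.17 ± 0.08 (limma, adjusted p = 0.268). Dll3, a divergent ligand that acts mainly inside the cell and is known from the segmentation of somites, had 1279 and 1162 normalized counts with doxycycline, against 1017 and 1139 without. Library 8 exceeded library 7 by only 0.03 on the log2 scale, and the change of 0.18 ± 0.10 did not pass (limma, adjusted p = 0.355). Dll3 over Dll1 was 0.783 and 0.730 with doxycycline, against 0.734 and 0.771 without, and did not separate the groups. Dll4 over Dll1 was 0.0744 and 0.0743 with doxycycline, against 0.0581 and 0.0501 without, and did separate them.

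The Jagged ligands did not separate the groups. Jag1, a ligand of progenitor domains and many other tissues, had 589 and 711 normalized counts in libraries 2 and 8 with doxycycline, against 508 and 609 in libraries 1 and 7 without. Library 7 without doxycycline lay above library 2 with it. The change was 0.22 ± 0.14 (limma, adjusted p = 0.435). Jag2, known from the development of limbs and inner ear hair cells, had 1078 and 1102 normalized counts with doxycycline, against 1280 and 1043 without. Library 1 was the highest of the 4 and library 7 the lowest. The change of -0.08 ± 0.11 did not pass (limma, adjusted p = 0.723), and it was 0.06 without library 1.

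The Fringe genes Lfng and Mfng had changes of opposite sign, and neither passed. Lfng, lunatic Fringe, had 463 and 612 normalized counts in libraries 2 and 8 with doxycycline, against 315 and 439 in libraries 1 and 7 without. The groups did not overlap, but library 2 with doxycycline lay only slightly above library 7 without. Within the groups, library 7 exceeded library 1 by 0.48 and library 8 exceeded library 2 by 0.40 on the log2 scale. Between the groups, library 2 exceeded library 1 by 0.56 and library 8 exceeded library 7 by 0.48. The change was 0.52 ± 0.21, or 1.43-fold (limma, adjusted p = 0.234), and ranged from 0.28 without library 1 to 0.76 without library 7. Mfng, manic Fringe, had 1266 and 1063 normalized counts with doxycycline, against 1434 and 1168 without. Its groups overlapped, and the change was -0.16 ± 0.14 (limma, adjusted p = 0.555). Rfng, radical Fringe, the remaining Fringe gene of the mouse, had 982 and 1002 normalized counts with doxycycline, against 1276 and 1095 without. Both libraries with doxycycline were lower, by 0.25 ± 0.10 on the log2 scale, and the change did not pass (limma, adjusted p = 0.226). Lfng over Mfng was 0.366 and 0.576 with doxycycline, against 0.219 and 0.376 without, and overlapped. Lfng over Rfng was 0.472 and 0.611 with doxycycline, against 0.246 and 0.401 without, and did not.

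Levels of different genes were compared as normalized counts per kb of transcript, with the length of the GENCODE M21 transcript matched to each row's RefSeq accession. With doxycycline Notch3 was the most abundant of the 10, at 678 ± 35.9 per kb, followed by Mfng at 624 ± 77.1, and these neighbours did not differ beyond their spread. Notch1 (492 ± 21.6), Dll3 (466 ± 31.7) and Dll1 (450.0 ± 8.39) came next and lay within each other's spread or close to it. Lfng (233 ± 45.7) and Jag2 (213 ± 3.34) formed a lower pair that did not differ beyond its spread. Notch2 (170 ± 14.5) and Jag1 (116 ± 15.3) followed, each below the gene before it by more than the spread. Dll4, at 32.0 ± 0.610 per kb, was far below the rest.

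Without doxycycline the order was nearly the same. Mfng stood first at 698 ± 101 per kb, above Notch3 at 501 ± 20.9, a gap beyond their spread. Jag2 (227 ± 32.8) stood above Lfng (163 ± 38.2), within theirs. Notch1 (443 ± 11.9), Dll3 (412 ± 33.0) and Dll1 (399.7 ± 18.2) lay between, and Notch2 (119.9 ± 2.32), Jag1 (99.5 ± 12.6) and Dll4 (20.6 ± 1.20) closed the order. Notch3 was above Mfng in both libraries with doxycycline, by 704 against 679 per kb in library 2 and 653 against 570 in library 8. In both libraries without doxycycline Mfng was above Notch3, by 769 against 516 per kb in library 1 and 626 against 487 in library 7. The summed receptors were at 1371 and 1310 per kb with doxycycline, against 1069 and 1059 without, and the summed ligands at 1293 and 1262 with, against 1138 and 1180 without. The ratio of receptor to ligand sums was 1.06 and 1.04 with doxycycline, against 0.939 and 0.898 without.

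**Figure D3:**
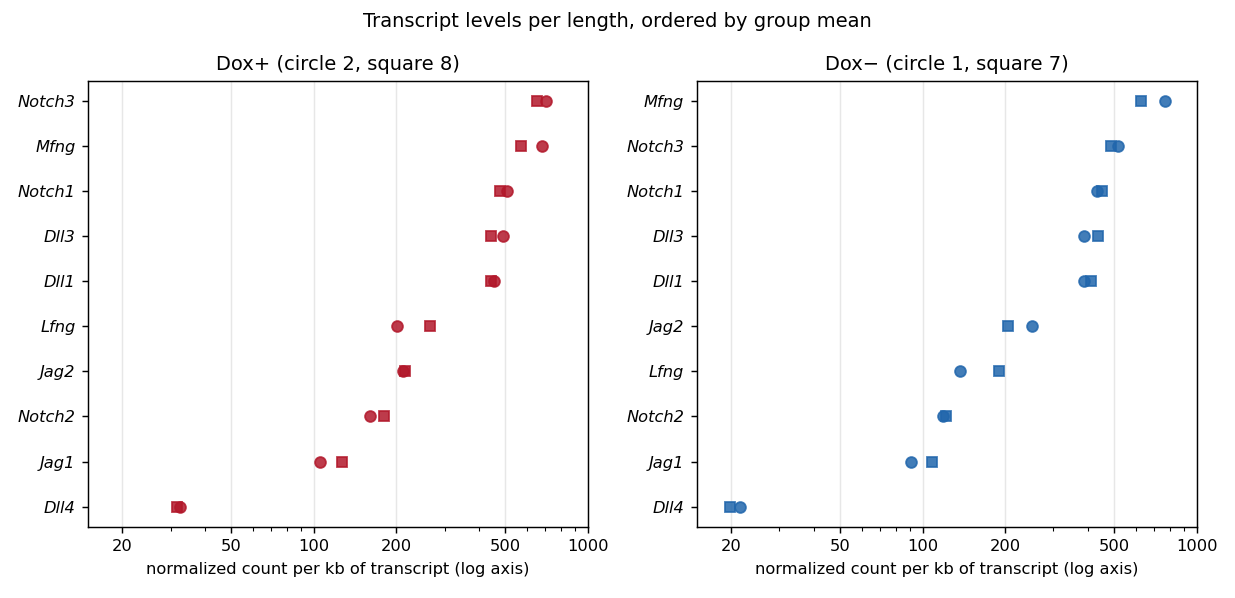
Normalized count per kb of transcript on a log axis for each gene, with doxycycline on the left (circle library 2, square library 8) and without on the right (circle library 1, square library 7), ordered by group mean. Notch3 heads the order with doxycycline and Mfng without; Dll4 is last in both.

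Annotation puts exons of other genes on 5 of the 10. On GENCODE M21 the exons of Notch1 overlap 0610009E02Rik and Gm13568, those of Notch3 Gm17276, those of Dll1 A930024N18Rik and those of Dll4 Gm14207, each on the opposite strand, and those of Notch2 Gm42820 on the same strand. None of these partners is listed in the table. No source used here says whether the counting was stranded, so reads of a gene and its antisense partner cannot be told apart.

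The remaining pathway genes, in lists of receptor processing, ligand and receptor handling and nuclear partners, gave 1 call, a fall. These lists had 8, 3, 4, 10 and 10 listed genes. Of all rows, 2.37% were called in either direction and 1.79% lower, so 1 call is close to that share. Fbxw7, the ubiquitin ligase subunit that marks the Notch intracellular domain for destruction, was at 1308 and 1169 normalized counts with doxycycline, against 1853 and 1843 without. Both libraries with doxycycline were lower, by 0.58 ± 0.08 on the log2 scale (limma, adjusted p = 0.0379). The call was lost without library 1, 2 or 8 (adjusted p = 0.0804, 0.0604 and 0.152) and without the intensity trend (adjusted p = 0.0821). In its list of 10 receptor inhibitors and turnover genes all were listed and the median change was 0.10. Of these, 6 had values above 0, against 50.6% of all rows. Dtx4, a Deltex ubiquitin ligase, had a change of 0.32 ± 0.08 (limma, adjusted p = 0.0997).

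Of the 9 genes of gamma-secretase and the surface proteases, which cut the receptor, 8 were listed and none passed. Aph1b, a gamma-secretase subunit, had a change of -0.36 ± 0.11 (limma, adjusted p = 0.155). The list's median was -0.02. None of the 10 genes of the nuclear complex passed either, with a median of 0.0032. Maml3, a Mastermind co-activator, had a change of -0.22 ± 0.08 (limma, adjusted p = 0.210) and Hdac1, a histone deacetylase of co-repressor complexes, one of 0.17 ± 0.07 (limma, adjusted p = 0.242). RBPJ itself is encoded by Rbpj, which had a change of -0.06 ± 0.08.

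Of the ligand ubiquitin ligases 3 of 6 were listed and none passed, with Mib2 at 0.20 ± 0.09 (limma, adjusted p = 0.253) and Neurl1a at -0.06 ± 0.18 (limma, adjusted p = 0.886). Of 6 genes of receptor glycosylation and cleavage in the secretory pathway 4 were listed, Rfng among them, and none passed. Pofut1, which adds the fucose that Fringe extends, had a change of 0.12 ± 0.11 (limma, adjusted p = 0.566).

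Downstream of the receptors, a list of 11 genes, Notch target repressors with Id genes and Hes6 beside them, had 10 listed, and none passed. Nrarp is counted here and also among the receptor inhibitors and turnover genes. Of the 10, 7 had values above 0, against 50.6% of all rows, and the median change was 0.23. The 3 below 0 were Id1, Id3 and Hes6. In 5 of the 10 both libraries with doxycycline were above both without, which held for 26.7% of all rows. In 2, Id1 and Id3, both were below, which held for 26.5% of all rows. Hes1, a repressor induced by Notch in progenitors, was at 1317 and 1837 normalized counts with doxycycline, against 1039 and 1152 without. Both libraries with doxycycline were higher, with library 8 well above library 2, and the change of 0.51 ± 0.16 did not pass (limma, adjusted p = 0.165). Hes5 had a change of 0.23 ± 0.19 with overlapping groups. Hey1, Hey2, Heyl and Nrarp had both libraries with doxycycline above both without. Their changes were 0.22 ± 0.10, 0.47 ± 0.20, 0.46 ± 0.18 and 0.27 ± 0.11. Id3, which blocks bHLH factors and responds mainly to BMP signals, had a change of -0.20 ± 0.07 (limma, adjusted p = 0.198). Of 8 proneural factors, which switch on Delta-like ligand genes, 5 were listed and none passed. Neurod4 had a change of -0.53 ± 0.25 (limma, adjusted p = 0.287), Neurod1 one of 0.24 ± 0.15 (limma, adjusted p = 0.400) and Neurog2 one of -0.09 ± 0.15.

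Neuron markers had values below 0, and all but 1 of the progenitor markers had values above 0. Of 10 neuron markers 9 were listed, and 8 of them fell, while 1.79% of all rows were called lower. All 9 had both libraries with doxycycline below both without, against 26.5% of all rows, and the median was -0.92. Nefm, a neurofilament, fell by 1.45 ± 0.10 on the log2 scale (limma, adjusted p = 0.00832) and Gap43, a growth cone protein, by 1.43 ± 0.11 (limma, adjusted p = 0.00962). The other falls were those of Stmn2, Mapt, Nefl, Elavl4, Elavl3 and Dcx. Leaving out library 8 lost the calls of Mapt, Elavl4, Elavl3 and Dcx, leaving out library 2 that of Elavl3 and leaving out library 1 that of Dcx. Without the intensity trend the calls of Nefl, Mapt, Elavl4, Elavl3 and Dcx were lost (limma, adjusted p = 0.0577, 0.0502, 0.0890, 0.0945 and 0.112), and that of Dcx also with quantile scaling (0.0535) and robust empirical Bayes estimates (0.0608). Summed over the list, the normalized counts were 73653 and 59231 with doxycycline, against 151420 and 134460 without.

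Of 10 progenitor markers 9 had values above 0, against 50.6% of all rows, and the median was 0.45. In 8 both libraries with doxycycline lay above both without, against 26.7% of all rows, and in 1, Nes, both lay below. Slc1a3, the glutamate transporter of radial glia, alone passed, with a rise of 0.52 ± 0.08 (limma, adjusted p = 0.0413), and that call was lost whichever library was left out and without the intensity trend (limma, adjusted p = 0.0857). Sox1 had a change of 0.50 ± 0.10 (limma, adjusted p = 0.0740). The list's summed normalized counts were 41640 and 45972 with doxycycline, against 38927 and 39844 without. The largest part of each sum was Vim, at 18969 and 21996 with doxycycline, against 19928 and 20477 without, and its groups overlapped. The part of these changes in the values of the Notch receptors and ligands was not tested. In bulk RNA, a change in the number of cells of a type and a change in RNA per cell cannot be told apart.

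V2b interneurons, which arise where Notch signalling is high, were represented by Gata2 and Gata3, while Tal1 was not among the listed rows. Their summed normalized counts were 298 and 197 with doxycycline, against 376 and 258 without, and neither Gata3 (-0.50 ± 0.25; limma, adjusted p = 0.316) nor Gata2 (-0.22 ± 0.34; limma, adjusted p = 0.763) passed. Vascular mural cells, in which Notch3 is abundant, gave 4 of 6 markers, with summed normalized counts of 3043 and 1807 in libraries 2 and 8, against 3035 and 1619 in libraries 1 and 7. Most of each sum was Tagln, whose groups overlapped, while Des and Pdgfrb were higher in both libraries with doxycycline than in both without. None of the 4 passed, with Des at 0.71 ± 0.23 (limma, adjusted p = 0.166) and Pdgfrb at 0.29 ± 0.15 (limma, adjusted p = 0.336), and Rgs5 and Cspg4 were not among the listed rows. The part of mural cells in the Notch3 values was not tested. Endoderm markers, 5 of 6 listed, summed to 8440 and 16482 with doxycycline, against 10359 and 17704 without, and also overlapped. Of these, Foxa2 alone had a value above 0, a change of 0.37 ± 0.35 (limma, adjusted p = 0.596). The other 4 were below 0, among them Gata6 at -0.30 ± 0.36 (limma, adjusted p = 0.679).

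**Figure D4:**
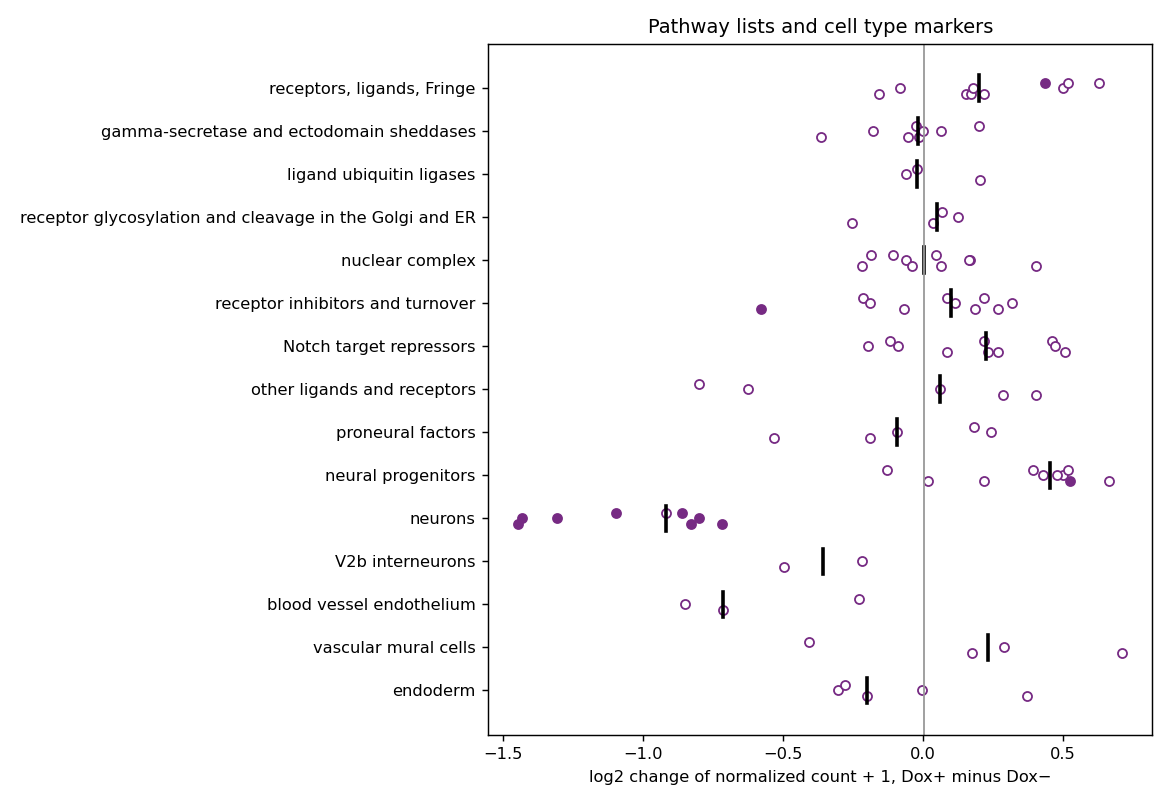
Change of each listed gene on the log2 scale, with doxycycline minus without, for the 10 genes (top row), the other pathway lists and cell type markers; filled points passed limma at an adjusted p under 0.05, black bars are list medians and the grey line is the median of all rows. The neuron markers lie to the left of 0 with a median of -0.92, and the progenitor markers and the 10 genes have medians of 0.45 and 0.20.

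The genes whose pattern over the 4 libraries was most like that of Notch3 were Psrc1, Nudt8 and Tmtc4. Among 10416 other genes with a mean of at least 200, their mean-centred log2 values differed from those of Notch3 by a root mean square of 0.0251, 0.0255 and 0.0264. In all, 22 genes lay within 0.05, and the likeness rests on 4 libraries in 2 groups.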

How the data were processed

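RNA from 4 libraries of stem cell derived motor neuron cultures was sequenced, per the labels' protocols, from Illumina TruSeq libraries. The submitters' processing notes list CASAVA, TopHat2, HTSeq, DESeq and the build mm9 without roles or versions. The deposited table gives a signal per gene, normalized read counts that the authors appear, from the values, to have made by dividing each library by a size factor. Every value lies within 0.1 of a whole multiple of a step (0.882 to 1.18 normalized counts), taken as 1 read, and read numbers are estimates from it. Column names give the group of a library (1 and 7 without, 2 and 8 with doxycycline) but not its replicate number. The induced gene and 1 list gene that the naming rule takes are not reported here.

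On the scale log2(normalized count + 1), groups were compared with limma 3.58.1 in R 4.3.3, with an intensity trend, over all 11747 rows. The filter, a row mean of at least 10, removed none. Residual degrees of freedom were 2 and prior ones 3.83. Simulated data were used to check the limma step. The members, the 14 other gene lists, the tests and the naming rule were chosen with earlier results of these data known. The rule named all members, every other list gene past the test, the 2 of each list with the smallest p, and 3 genes most like Notch3. A few other list genes were named after their values were seen. Mnx1 and Chat, which are in none of the lists, were named as markers of the labelled cell type. Alternatives were other pseudocounts (0.5 and 5), filters, scalings (quantile and TMM), variance models, libraries paired by column number, and each library left out. Python 3.11.15, pandas 2.3.3, numpy 2.4.6, scipy 1.17.1 and matplotlib 3.10.9 were used.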

Additional observations from a re-analysis of the deposited data

How the results depend on the processing

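No member changed direction, and Notch3 alone was called, under pseudocounts of 0.5 and 5, no filter, a row mean of at least 50, and quantile or TMM scaling. Without the trend there were 27 genes higher, 78 lower and 0 members called. Robust empirical Bayes gave 132 genes higher and 2 members, Notch2 and Notch3. Leaving out 1 library gave 2 to 156 genes higher and 42 to 338 lower over all rows, and 0 members called each time, in fits with 1 library in a group, which assume that this library varies like the others. Jag2 turned to 0.064 without library 1 and was -0.23 without library 7, and no other member changed sign. A replicate block by column number (1 with 2, 7 with 8) gave 1636 genes higher and 1872 lower of 11747 rows. It gave 5 members higher: Notch1, Notch2, Notch3, Dll4 and Lfng (limma, adjusted p = 0.0280, 1.66e-10, 4.51e-13, 0.0150 and 2.45e-05). The SE of Notch3 was 0.056 in this fit and 0.071 in the main fit, a small drop beside that of its adjusted p. These p-values thus depend heavily on the variance model, and no call above rests on them. The labels do not tie the column numbers to a shared culture or day. The deviations of libraries 1 and 2 from their group means correlated across genes (Pearson r = 0.63), and with 2 pairs that of 7 and 8 is the same by construction. Depth limits Dll4 most, with 69 to 134 estimated reads per library.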

Other observations

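Ligands and receptors outside the 10 genes were measured as well. Of 7 looked for, 5 were listed, none passed the test, and the median was 0.06. Of the 5, 3 had values above 0, against 50.6% of all rows. Dlk1, a Delta-like protein without the domain that activates Notch receptors, was at 4188 and 4749 normalized counts with doxycycline, against 3130 and 3641 without. Its groups did not overlap, and the change was 0.40 ± 0.10 (limma, adjusted p = 0.109). Dner, a neuronal transmembrane protein with Delta-like repeats, was at 373 and 310 normalized counts with doxycycline, against 601 and 458 without, a change of -0.63 ± 0.17 (limma, adjusted p = 0.126). Cntn1, a neuronal adhesion molecule described as a Notch ligand, had a change of -0.80 ± 0.26. Notch4, a Notch receptor of blood vessels that is not in the receptor sums above, had one of 0.06 ± 0.22 with overlapping groups.

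Lfng and Jag1 were higher, and Mfng lower, in libraries 8 and 7 than in libraries 2 and 1 of the same groups. On the log2 scale library 8 minus library 2 was 0.40 for Lfng, 0.27 for Jag1 and -0.25 for Mfng, and library 7 minus library 1 was 0.48, 0.26 and -0.30. Between the groups, the change was 0.52 for Lfng, 0.22 for Jag1 and -0.16 for Mfng, larger than both gaps for Lfng and smaller than both for Jag1 and Mfng. Summed endoderm markers were also higher in libraries 8 and 7, at 16482 and 17704 normalized counts, than in 2 and 1, at 8440 and 10359. Summed mural markers were lower, at 1807 and 1619 in libraries 8 and 7 against 3043 and 3035 in 2 and 1. Of these markers, only Tagln and Acta2 were clearly lower in both. Des was at 137 and 73.0 in libraries 8 and 7, against 107 and 74.2 in 2 and 1. Pdgfrb was at 244 and 228 in libraries 8 and 7, against 285 and 205 in 2 and 1. The part of cell composition in the gaps between libraries was not tested.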
